A study of Mus musculus with 4 samples.

Results

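The deposited microRNA (miRNA) table of N2a cells lists 2280 small RNA names, and 802 of them carry neither the mouse prefix mmu- nor the label of an unannotated candidate. They were chosen by name alone and are called unprefixed names here. Of the rest, 946 are mouse-named and 532 are unannotated candidates. N2a is an established mouse neuroblastoma line, labelled as neural cells of the C57BL/6 strain. One small RNA library came from untreated cells and one from cells grown in MEM medium with 300 µM manganese for 48 h. The labels' treatment text is the same for both, so only the titles say which library was treated. Total RNA libraries of the same 2 conditions were not used here. With 1 library per condition there is no replicate check, and each value compares these libraries, not the conditions. Intervals in brackets are exact 95% intervals that cover the counting error of reads only. Reads were amplified by PCR and carry no molecular identifier, so the intervals may be too narrow for counts of molecules.

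A miRNA is cut from a hairpin precursor, and either arm of the hairpin (5p or 3p) can give the mature strand. Bases 2 to 8, the seed, do most of the pairing with target messages, while the 3′ end varies between copies of one miRNA. Enzymes in the cell can add A or U to that end, so one hairpin gives several forms, called isomiRs. Other small RNAs of similar length enter the same libraries, among them pieces of transfer RNA (tRNA), whose mature 3′ end is an added CCA.

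The first sequences are shown because they carry the most reads or the clearest differences and can be set beside the mouse-named miRNA of the same number. Each pair gives the mouse-named sequence first. Capitals mark the seed and, in the unprefixed form, the bases at the 3′ end that the mouse-named sequence lacks or that differ from it. All are written 5′ to 3′ in DNA letters as deposited.
mmu-miR-218-5p: tTGTGCTTgatctaaccatgt
miR-218-x: tTGTGCTTgatctaaccatgtGT
mmu-miR-27b-3p: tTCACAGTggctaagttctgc
miR-27-y: tTCACAGTggctaagttctgcAA
mmu-miR-21a-5p: tAGCTTATcagactgatgttga
miR-21-x: tAGCTTATcagactgatgttgaCA
mmu-miR-92a-3p: tATTGCACttgtcccggcctg
miR-92-y: tATTGCACttgtcccggcctgTA
mmu-miR-25-3p: cATTGCACttgtctcggtctga
miR-25-y: cATTGCACttgtctcggtctgaAT
mmu-miR-878-5p: tATCTAGTtggatgtcaagaca
miR-878-x: tATCTAGTtggatgtcaagacaCT
mmu-miR-881-3p: aACTGTGTcttttctgaataga
miR-881-y: aACTGTGTcttttctgaatagTA
mmu-miR-210-3p: cTGTGCGTgtgacagcggctga
miR-210-z: cTGTGCGTgtgacagcggctgaAA
mmu-miR-101b-3p: gTACAGTActgtgatagct
miR-101-y: tACAGTACtgtgatagctGAAG

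In the first 8 pairs the unprefixed form kept the mouse seed. The miR-92 and miR-25 pairs share one seed. The miR-101 pair differs at the 5′ end: miR-101-y starts 1 base inside mmu-miR-101b-3p, so its seed is that of mmu-miR-101a-3p instead. Positions are those of the mouse-named sequences in RefSeq on GRCm38.p6. mmu-miR-218-5p lies at chr5:48223966-48223986 and chr11:35616840-35616860, both on the plus strand and within the spans of Slit2 and Slit3. mmu-miR-27b-3p lies at chr13:63300760-63300780, plus strand, within Aopep, and mmu-miR-21a-5p at chr11:86584120-86584141, minus strand, within Vmp1. mmu-miR-25-3p lies at chr5:138165332-138165353, minus strand, within Mcm7, and mmu-miR-101b-3p at chr19:29135338-29135356, plus strand, within Rcl1. mmu-miR-92a-3p lies at chr14:115044476-115044496 on the plus strand and chrX:52741854-52741874 on the minus strand. mmu-miR-878-5p at chrX:66801554-66801575 and mmu-miR-881-3p at chrX:66801954-66801975 are neighbours on the minus strand. mmu-miR-210-3p lies at chr7:141221407-141221428, minus strand. The table used for spans does not separate exons from introns.

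The second set is shown because its members hold most of the extra reads of the treated library. Capitals mark a CCA.
miR-7550-x: ttccggctcgaaggaCCA
miR-2779-z: ttccggctcgaaggaCCA
miR-11202-x: ttccggctcgaaggaCCA
miR-2779-y: tccggctcgaaggaCCAag
miR-2779-x: tccggctcgaaggaCCAt
miR-2478-y: tcgtatcccacttctgacaCCA
miR-5100-y: tcgaatcccagcggtgcctCCA
miR-9277-y: tcgaatcctgccgactacgCCA
miR-3968-y: tcgaatcccactcctgacaCCA
miR-1260-x: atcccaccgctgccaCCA

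The first 3 of these names have one and the same deposited sequence, and the next 2 hold its run from base 2 onward. With the CCA removed, the sequences were looked for in 1005 mouse hairpins of RefSeq. Only that of miR-5100-y was found, in 1 hairpin. No table of tRNA sequences was used here, so whether these reads come from tRNA was not tested.

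The names follow one pattern. Of the 802, 799 start with miR- and 3 with let-7, they cover 615 numbers, and none carries the letter that tells mouse paralogs apart. The suffix is y in 410, x in 376 and z in 16. Where the closest mouse sequence has the same number and an arm in its name, x went with 5p in 220 names and with 3p in 2, miR-378-x and miR-431-x. The y names went with 3p in all 239 cases, and z with 3p in 5 and 5p in 4. By sequence, x thus went mostly with the 5p arm and y with the 3p arm.

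The deposited sequences were 18 to 27 bases long, and none was identical to a mouse-named sequence of the table. Short and long sequences were both more frequent than among mouse names. An 18-base sequence stood under 76 unprefixed names (9.48%) and 1 mouse name (0.106%), and 24 or more bases under 181 (22.6%) and 66 (6.98%). A CCA ended 36 unprefixed sequences (4.49%) and 10 mouse-named ones (1.06%).

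Most unprefixed names had few reads. The median was 10 reads over both libraries, 460 names had under 20, and 298 had 0 reads in one library. Those with 20 or more, 342 names, are called measured, and 74 had 1000 or more. Read numbers are given below as untreated and then Mn-treated.

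The unprefixed names held 723710 of 10479102 reads in the untreated library and 795854 of 9943263 in the Mn-treated library. Their share was 6.91% [6.89 to 6.92] and 8.004% [7.99 to 8.02], a gain of 1.10 percentage points or 1.16-fold. The mouse-named share was lower by about as much, at 92.97% and 91.87%, and the unannotated candidates held 0.126% and 0.127%. Among unprefixed names, 493 had a larger share in the treated library, adding 1.42 points, and 309 a smaller one, with a sum of -0.319 points. The 10 largest gains alone summed to 1.04 points and the 6 largest losses to -0.254 points.

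The reads were concentrated. The 12 names with most reads held 75.0% of the unprefixed reads in the untreated library and 73.3% in the treated one. In order they were miR-7550-x, miR-2779-z, miR-101-y, miR-2478-y, miR-218-x, miR-11202-x, miR-27-y, miR-21-x, miR-92-y, miR-881-y, miR-23-y and miR-878-x. They carried 63.1% of the difference in share. Of the 12, 7 had a higher level in the treated library and 5 a lower one.

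**Figure D1:**
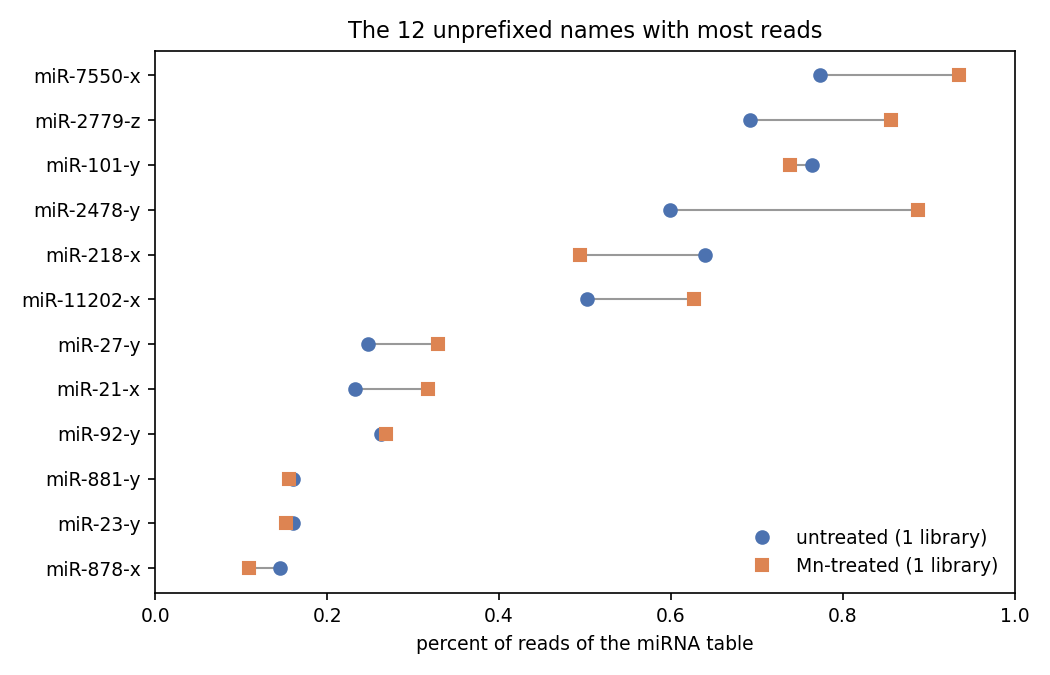
Percent of the reads of the miRNA table (horizontal axis) for the 12 unprefixed names with most reads (vertical axis); circles are the untreated and squares the Mn-treated library, 1 library each. miR-2478-y shows the widest gap in favour of the treated library and miR-218-x the widest in favour of the untreated one.

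The 2-fold differences were counted against all names. A log2 ratio here is that of reads plus 0.5 over the table's total, Mn-treated over untreated. Of the 342 measured unprefixed names, 47 (13.7%) were at least 2-fold higher in the treated library, beside 8.49% of all 1084 measured names and 6.28% of 605 measured mouse names. At least 2-fold lower were 21 (6.14%), beside 6.55% of all measured names and 4.63% of mouse names. The median log2 ratio was 0.29 for unprefixed, 0.07 for mouse-named and 0.09 for all measured names. The unprefixed names thus leaned further towards the treated library than the mouse names, with no replicate to set this against.

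Each deposited sequence was set beside the closest mouse sequence, from the mouse names of the table and the mature miRNAs of RefSeq. A relation was found for 555 names: 526 to a mouse miRNA of the same number and 29 to one of another number. The 555 fell into 4 classes. In 224 the start was the same and the 3′ end longer. In 147 the start was the same and up to 3 last bases differed. In 90 the start was shifted, and 94 had up to 2 mismatches in the overlap, called mismatches inside. The other 247 names had no mouse match.

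**Figure D2:**
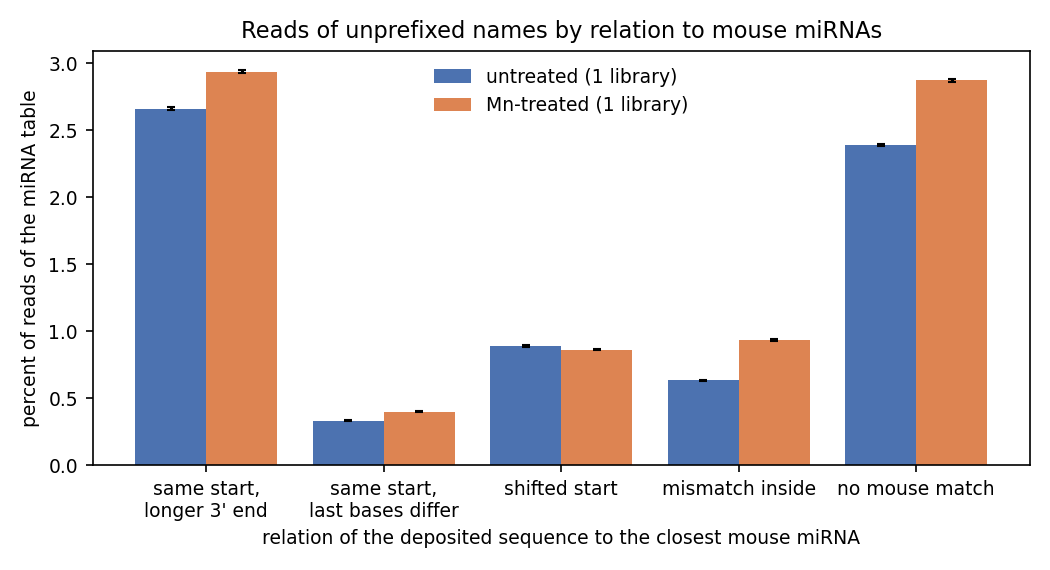
Percent of all reads of the miRNA table (vertical axis) held by unprefixed names of each relation to the closest mouse miRNA (horizontal axis); bars are the untreated and the Mn-treated library, 1 each, and error bars are exact 95% binomial intervals. With every name counted, names without a mouse match gained the most, from 2.39% to 2.87%. Without CCA ends and the run of miR-7550-x, the other 217 of them fell from 0.169% to 0.143%. Names classed as shifted start fell slightly, from 0.890% to 0.863%. The mismatch class includes miR-2478-y, whose mismatch lies at the first mouse base.

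Names without a mouse match carried 44.1% of the difference in share, with 2.39% of reads untreated and 2.87% treated. Names with mismatches inside carried 27.4%, at 0.634% and 0.935%. Nearly all reads of that class, 62705 of 66458 and 88256 of 92947, belonged to miR-2478-y. It starts further out than its closest mouse sequence, mmu-miR-3963, and differs in the overlap only at the first mouse base. The rule therefore placed it here and not with shifted starts. Longer 3′ ends carried 25.1%, at 2.66% and 2.94%, and differing last bases 5.90%, at 0.334% and 0.399%. Shifted starts as classed, without miR-2478-y, went the other way, at 0.890% and 0.863%. That direction depends on where miR-2478-y, with its larger gain, is placed. The classes differed in how the difference was spread. A log2 ratio above 0 was found for 601 of 1084 measured names of the whole table (55.4%) and 227 of 342 unprefixed ones (66.4%). Among longer 3′ ends, 114 of 143 (79.7%) were above 0, with a median of 0.51. Among names without a match, 29 of 68 (42.6%) were, with a median of -0.08, so that their larger share came from a few names. These were names with a CCA end or the run of miR-7550-x. The other 217 names without a match held 0.169% and 0.143%.

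Most of the extra reads stood under names ending in CCA. The 36 such names held 287768 and 351267 reads, 2.75% and 3.53%, a difference of 0.787 points that was 71.7% of the whole. Of their 18 measured members, 12 (66.7%) were above 0 and 6 below, with a median of 0.31. This is close to the 66.4% above 0 among all measured unprefixed names. Beside those, the CCA-ended names stood out in reads, not in how many leaned to the treated library. Of the 36, 28 had no mouse match. Among names without a match that had neither a CCA end nor the run of miR-7550-x, fewer leaned that way, 18 of 52 measured (34.6%). With miR-2779-y and miR-2779-x, which hold the same run without ending in CCA, the 38 names made up 75.0% of the difference. The other 764 unprefixed names held 4.01% untreated and 4.29% treated, a difference of 0.275 points.

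miR-2478-y had the largest gain of any unprefixed name. Its reads numbered 62705 and 88256, 0.598% and 0.888% of each library, with a log2 ratio of 0.57 [0.55 to 0.58]. Its closest mouse sequence was mmu-miR-3963, which has no row in the table. The name stands on a list of 11 miRNA numbers known to collect reads of other RNA classes, of which 4 were found here. The other three were miR-1260-x with 3181 and 3298 reads, miR-4454-x with 950 and 803, and miR-1246-x with 0 and 3. The level was higher in the treated library for miR-2478-y and miR-1260-x and lower for miR-4454-x.

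The 18-base sequence ttccggctcgaaggaCCA stood under the names miR-7550-x, miR-2779-z and miR-11202-x. miR-7550-x had 81014 and 93025 reads, with a log2 ratio of 0.28 [0.26 to 0.29]. miR-2779-z had 72478 and 85115, a ratio of 0.31 [0.29 to 0.32], and miR-11202-x had 52666 and 62356, a ratio of 0.32 [0.30 to 0.34]. All were higher in the treated library by a similar factor. Together they held 1.97% and 2.42% of all reads, 41.1% of the difference. Counted once, as miR-7550-x, the sequence held 0.773% and 0.936%, or 20.1% of the difference that then remained. With miR-2779-y (9597 and 11271 reads) and miR-2779-x (5692 and 6877), the run was under 5 names with 2.11% and 2.60%, and their log2 ratios lay between 0.28 and 0.35.

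In all, 8 deposited sequences stood under more than 1 name, covering 19 names. The names of one sequence had equal reads in only 3 of the 8, so a row can count more than its printed sequence. Whether a read was counted under several names was not tested. Each such sequence was then counted once, under its most read name, over unchanged column totals. Those totals still held the reads left out. Mouse names with equal reads, such as mmu-miR-465a-3p and mmu-miR-465b-3p, stayed separate. The unprefixed share was then 5.68% and 6.49%. Of that difference, 61.6% stood under CCA ends, 37.3% under names with mismatches inside, 33.5% under longer 3′ ends and 24.6% under names without a mouse match. The order of the classes thus depended on this choice.

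Other names with CCA ends followed at lower levels. miR-5100-y had 5558 and 6659 reads, with a log2 ratio of 0.34 [0.28 to 0.39], while the mouse-named mmu-miR-5100 had 29 and 20. Here the unprefixed name held nearly all reads of the pair, and whether its reads come from that miRNA was not tested. miR-9277-y had 4570 and 6140 reads, a ratio of 0.50 [0.45 to 0.56]. miR-3968-y had 1837 and 2716, a ratio of 0.64 [0.55 to 0.73]. Not all shared this direction: miR-9226-x had 611 and 401 reads and miR-10955-y 428 and 200, both lower in the treated library. Of the 11 CCA-ended names with at least 1000 reads, 9 were above 0. This lean was not particular to CCA ends. Of 48 names with the mouse start and that many reads, 24 were above 0 together with their mouse-named reads. Another 17 were above 0 without them.

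**Figure D3:**
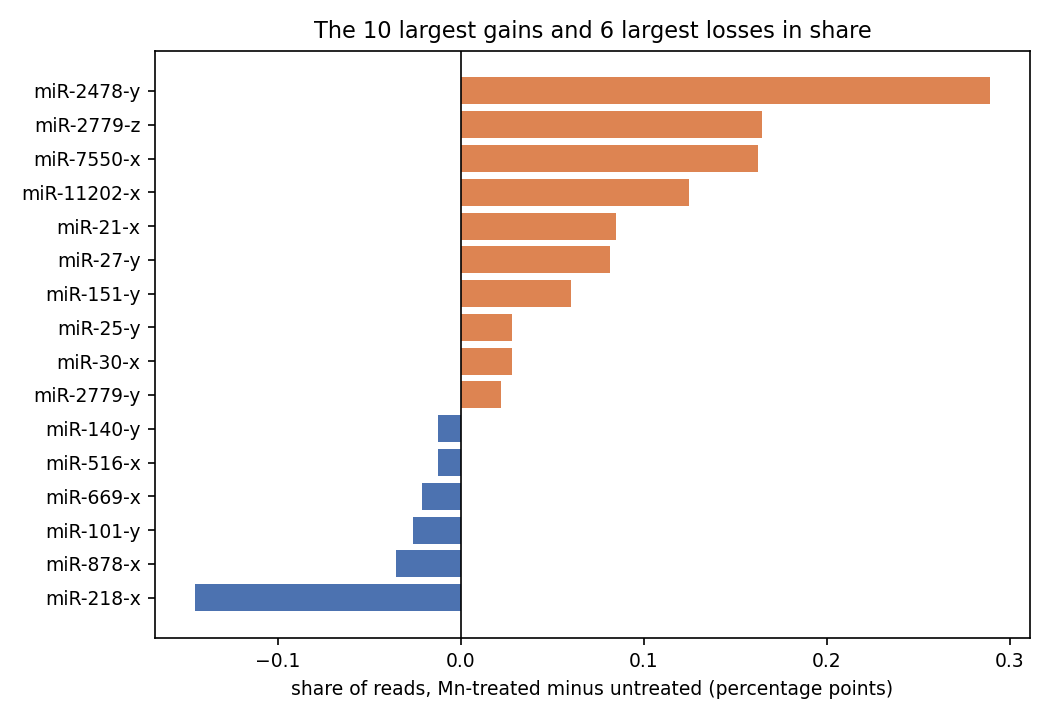
Difference in share of all reads, Mn-treated minus untreated, in percentage points (horizontal axis) for the 10 unprefixed names with the largest gain and the 6 with the largest loss. The 4 longest bars to the right, led by miR-2478-y at 0.289 points, belong to names ending in CCA, and the longest bar to the left is miR-218-x at -0.145 points.

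The longer 3′ ends had mostly 1 or 2 extra bases: 1 in 48 names, 2 in 151, 3 in 24 and 4 in 1. The last base was T in 130 of the 224 names and A in 75, together 91.5%, beside 53.4% of mouse-named sequences. The added bases were set beside the RefSeq hairpin where it was long enough, in 179 names. All added bases matched the hairpin in 11 names: 0 of 38 with 1 added base, 0 of 124 with 2, 10 of 16 with 3, and 1 of 1 with 4. In 95 names none matched. How reads were divided between mouse and unprefixed names is not known, so these end bases describe the unprefixed names alone. Whether enzymes in the cell added the bases was not tested. Names ending in A held 123251 and 144116 reads, a log2 ratio of 0.30, while those ending in T held 154033 and 145803, a ratio of -0.003. The T-ended sum rested on miR-218-x: without it, the T-ended names held 87011 and 96665 reads, a log2 ratio of 0.23, so both endings were then higher in the treated library.

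For names with the mouse start, the unprefixed reads were expressed as a share of their family, meaning those reads plus all mouse-named reads of the same number and arm. The family holds every mouse paralog of that number and arm, so this is not a share against the closest mouse name alone. Mouse names with equal reads, such as mmu-miR-466c-3p and mmu-miR-466e-3p (980 and 658 each), were all summed. Whether a read was counted under several mouse names was not tested. There were 198 measured pairs. The share was larger in the treated library in 139 (70.2%), smaller in 58 and equal in 1. Its median was 4.40% and 5.77%, and the summed share was 3.66% and 4.13%. The 95% intervals of the 2 libraries lay apart in 68 pairs with a larger and 7 with a smaller share in the treated library, and overlapped in 123. Against the closest mouse name alone, the share was larger in the treated library in 143 of the 198, smaller in 54 and equal in 1. Single names can differ in direction between these 2 choices.

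**Figure D4:**
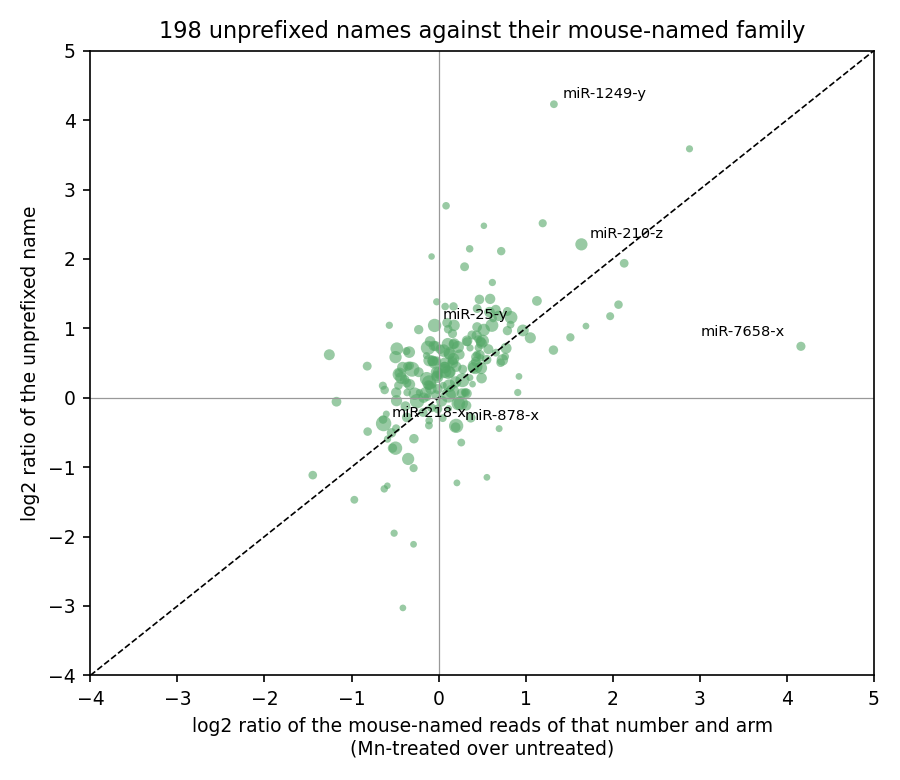
Log2 ratio, Mn-treated over untreated, of 198 unprefixed names (vertical axis) against that of all mouse-named reads with the same number and arm (horizontal axis); each point is 1 name, larger with more reads, and the dashed line marks equal ratios. Most points lie above the line, as the larger family share in 139 of 198 pairs gives, and miR-878-x lies below; the mouse name of miR-7658-x, far right, had 0 reads in the untreated library.

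Across these pairs the median log2 ratio was 0.45 for the unprefixed names and 0.11 for their mouse families. Both were higher in the treated library in 102 pairs and both lower in 29. Only the unprefixed name was higher in 54, and only the mouse family in 13. Pearson's r between the log2 ratios was 0.53 and Spearman's rho 0.58 over these 198 names, which share both libraries and their totals. Over 334 pairs with no minimum of reads they were 0.17 and 0.22.

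Among abundant members the family shares moved by different amounts. miR-218-x, a form of a miRNA known from motor neurons, had the largest loss of all unprefixed names. It had 67022 and 49138 reads, with a log2 ratio of -0.37 [-0.39 to -0.36]. mmu-miR-218-5p had 500656 and 306657, a ratio of -0.63, so the share of the longer form was 11.8% and 13.8%. Both forms were lower in the treated library, the longer one by less.

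miR-27-y, of a family known from lipid metabolism, had 25950 and 32720 reads, with a log2 ratio of 0.41 [0.39 to 0.43]. Its mouse family had 405053 and 311092 reads, a ratio of -0.31. The 2 forms went in opposite directions, and the share of the longer one was 6.02% and 9.52%.

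miR-25-y, whose hairpin sits with that of miR-93 and miR-106b in Mcm7, had 2786 and 5443 reads, with a log2 ratio of 1.04 [0.98 to 1.11]. mmu-miR-25-3p was nearly level at 69947 and 64293 reads, a ratio of -0.05. The share was 3.83% and 7.81%. miR-151-y had 9707 and 15171 reads, a ratio of 0.72 [0.68 to 0.76], while mmu-miR-151-3p had 109854 and 95779. Its share was 8.12% and 13.7%. miR-103-y had 1611 and 2494 reads beside mouse-named 25643 and 17452, a share of 5.91% and 12.5%. In each of these the longer form was higher and the mouse-named reads lower in the treated library.

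miR-21-x, of a miRNA raised in many tumours and in injured tissue, moved with its family. It had 24380 and 31542 reads, with a log2 ratio of 0.45 [0.42 to 0.47], beside 0.42 for mouse-named reads (526459 and 667775). The share was 4.43% and 4.51%. miR-30-x had 9497 and 11767 reads, with a log2 ratio of 0.38, and a share of 3.30% and 4.08%.

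miR-92-y, of a family that includes members of the miR-17-92 cluster, had 27467 and 26735 reads, with a log2 ratio of 0.04 [0.01 to 0.06]. It made up 35.7% and 34.5% of its family. miR-23-y had 16829 and 15115 reads, a ratio of -0.08 [-0.11 to -0.05], and its share was 46.7% and 41.0%. In both the unprefixed form was a large part of the miRNA and its share was smaller in the treated library.

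miR-878-x and miR-881-y come from the X-linked cluster whose hairpins are neighbours. miR-878-x had 15161 and 10861 reads, with a log2 ratio of -0.41 [-0.44 to -0.37], while mmu-miR-878-5p had 138241 and 150893, a ratio of 0.20. Its share was 9.88% and 6.71%. miR-881-y had 16833 and 15449 reads beside 2084986 and 1667451 of mmu-miR-881-3p, a share of 0.801% and 0.918%. The first variant thus lost ground to its mouse-named form, and the second gained slightly on the most abundant mouse form named here.

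Of 23 miRNA numbers of large or abundant families that were looked up as a list, 22 had unprefixed names. In 16 the unprefixed share of the number was larger in the treated library, which is near the 70.2% of the 198 pairs above. For let-7 it was 0.478% and 0.730%, for miR-106 4.46% and 6.58%, for miR-466 3.64% and 5.84%, and for miR-467 0.148% and 0.227%. It was smaller for miR-669, at 3.07% and 2.59%, where miR-669-x had 5654 and 3242 reads, and for miR-100, at 1.48% and 1.18%. The closest mouse name of miR-669-x, mmu-miR-669c-5p, had 79898 and 32350 reads. Its log2 ratio was -1.23, beside -0.73 for miR-669-x, so against that name alone miR-669-x fell less. For miR-125 and miR-99 the unprefixed share of the number was close in both libraries, at 4.23% and 4.27% and at 1.35% and 1.42%. The mouse sums for miR-466, miR-467 and miR-669 include names with equal reads. Shares of those numbers depend on whether a read was counted under several names.

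A shifted start changes the seed. Only 8 of the 90 names with one had a seed found among mouse-named sequences. The reads lay almost wholly with 34 names that start 1 base inside the mouse sequence, with 88465 and 80588 reads. miR-101-y, of a miRNA known to target Ezh2, had 80132 and 73414 of these, a log2 ratio of -0.05 [-0.07 to -0.04]. The mouse-named miR-101 reads of that arm were 50078 and 42732, so the unprefixed name was the more abundant at 61.5% and 63.2%. miR-140-y, of a miRNA known from cartilage, had 5191 and 3671 reads, a ratio of -0.42 [-0.49 to -0.36]. It too starts 1 base inside, and it made up 34.8% and 35.9% of its family. Both forms of miR-140-3p were lower in the treated library.

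Of the largest ratios, miR-210 had the most reads. miR-210 is the miRNA most widely raised by low oxygen through HIF-1. miR-210-z had 438 and 1925 reads, with a log2 ratio of 2.21 [2.06 to 2.36]. mmu-miR-210-3p had 99 and 294, a ratio of 1.64, and miR-210-y, which starts 1 base further out, had 14 and 73, a ratio of 2.42 [1.62 to 3.40]. All 3 forms were higher in the treated library, and miR-210-z held 81.6% and 86.8% of the reads it shares with the mouse name. More reads of this arm stood under unprefixed names than under the mouse name in both libraries.

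The other high ratios rested on fewer reads. miR-9788-y, a CCA-ended name without a mouse match, had 0 and 137 reads, at least 48.1-fold higher against 3 reads in the untreated library. miR-6390-x had 34 and 312 reads, with a log2 ratio of 3.25 [2.76 to 3.83]. miR-499-x, of a miRNA encoded in a myosin gene, had 9 and 51, a ratio of 2.51 [1.54 to 3.79], and mmu-miR-499-5p had 197 and 429, a ratio of 1.20. The lowest ratios, again among names that reached 50 reads in a library, belonged to miR-1931-y (65 and 22 reads), miR-1187-y (276 and 96), miR-8251-x (70 and 26), miR-574-x (60 and 26) and miR-10955-y. Their log2 ratios ran from -1.47 to -1.02. The mouse names of a pair of them had the same direction: mmu-miR-1187 had 1005 and 375 reads and mmu-miR-574-5p 397 and 138. miR-1931-y has the same deposited sequence as miR-3473-y, which had 148 and 134 reads, so the low ratio of miR-1931-y was not shared by that name.

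Number and sequence mostly went together, with exceptions. By number and letter, 393 names had a mouse name in the table, and 504 had one when any letter was allowed. Of 29 names whose closest mouse sequence had another number, miR-2478-y held most of the 66287 and 92330 reads. Others were miR-107-y, a longer mmu-miR-103-3p with the same sequence as miR-103-y (1215 and 1650 reads), and miR-215-x, a shifted mmu-miR-192-5p (647 and 714). miR-10174-y was a longer mmu-miR-23b-3p (385 and 537). Conversely 22 names had the number of a mouse miRNA but no sequence match, with 110 and 126 reads in all.

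Names of a primate miRNA cluster that is expressed mainly in placenta (miR-498, miR-512, miR-515 to miR-527, miR-1283 and miR-1323) were also present, although none of its 17 numbers is a mouse number. The list was drawn up after its values were seen. All 17 numbers were found, in 29 names with 15908 and 12751 reads, 0.152% and 0.128% of the libraries. miR-516-x led with 7786 and 6121 reads, a log2 ratio of -0.27 [-0.32 to -0.22]. Of the 29 names, 26 had a smaller share in the treated library, beside 309 of all 802 unprefixed names. A log2 ratio above 0 was found for 1 of the 23 measured, beside 601 of 1084 measured names of the whole table. Among measured names without a mouse match, a CCA end or the run of miR-7550-x, a set that overlaps the cluster, it was 18 of 52. Of the 29, 1 had a sequence relation to a mouse miRNA. The 29 names are not all separate, since 6 of them shared 2 sequences, and miR-522-x and miR-523-x had identical reads (487 and 384). Of the 25 distinct sequences, each counted once, 22 had a smaller share. Chosen in this way, the group went against the net gain of the unprefixed names.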

How the data were processed

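Build mm9 and the tools Bowtie2, StringTie and fastp 0.18.0 are named in the submitters' processing notes, with no role given. The miRNA caller and what the name suffixes mean were not given in the sources used here. For miRNAs the deposited table holds whole read counts and TPM values made by the authors. The deposited TPM values imply totals of 10914338 and 10402153 reads, above the 10479102 and 9943263 reads of the table, and write 0 as 0.01. Both columns were assigned to their library by name. The other deposited tables were not analysed here.

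Shares are reads over the column total with Clopper-Pearson intervals. Ratios have exact conditional binomial intervals. No test was made with 1 library per group. A sequence relation needed a shared run of at least 15 bases, counted from the start of the overlap, and a shift of at most 6. The class with mismatches inside needed only an overlap of at least 15 bases with up to 2 mismatches. Members and lists were chosen with earlier results of these data known. The names given are the 12 with most reads, the 10 largest gains, the 6 largest losses, the 5 highest and 5 lowest ratios, the 6 most read without a mouse number, and the lists described. Names outside this rule were chosen after their values were seen. Mature sequences in RefSeq were found for 790 of 946 mouse names, and all 790 equalled the deposited ones. Ratio and sequence steps were tested on simulated data. Python 3.11.15, pandas 2.3.3, SciPy 1.17.1 and matplotlib 3.10.9 were used. Other denominators, minimum reads, folds and subsets were tried.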

Additional observations from a re-analysis of the deposited data

How the results depend on the processing

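No paired analysis was possible because each condition had 1 small RNA library. The unprefixed share, untreated and treated, and its difference in points were 6.63%, 7.65% and 1.02 over the totals implied by TPM, and 6.13%, 7.07% and 0.935 without the name with most reads. Alternatives were also chosen after seeing the data. Shared unprefixed sequences counted once over unchanged totals gave 5.68%, 6.49% and 0.808. Without CCA ends and the run of miR-7550-x the values were 4.01%, 4.29% and 0.275. Without the primate cluster they were 6.75%, 7.88% and 1.12. The difference kept its sign in all of these. The 47 higher and 21 lower names became 38 and 22 when scaled to the median mouse-named ratio, and 27 and 8 with at least 50 reads. They became 235 and 174 with no minimum, and 109 and 38 at 1.5-fold. The share over all names is not given for these settings, so these counts do not set the unprefixed names apart from the rest. The median log2 ratio of 0.29 became 0.22 when scaled to the median mouse-named ratio, 0.34 with at least 50 reads and 0.28 with no minimum. Counterparts by number rose from 393 to 504 when any letter was allowed. The 139 pairs with a larger family share became 214 of 334 with no minimum and 37 of 48 with at least 1000 reads. Ratios of 29 named members were retried with median scaling, the TPM ratio and pseudocount 1, giving 87 values. Of these, 68 moved by less than counting error and 18 by more. That of miR-92-y changed sign, from 0.04 to -0.033. Every move past counting error came from median scaling, which shifts all ratios by 0.07, so the count says little about robustness. miR-9788-y, with 0 untreated reads, went from 8.18 to 10.36 with TPM and 7.18 with pseudocount 1, within counting error.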
